A study of Mus musculus with 6 samples.

Results

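Liver sinusoidal endothelial cells line the capillaries of the liver, and 10 of their marker genes were followed in the livers of Mdr2 knockout mice given vehicle or lycorine. The 10 genes were taken from a list of names that covers scavenger, lectin and vascular genes. They are Stab1, Stab2, Clec4g, Mrc1, Fcgr2b, Lyve1, Kdr, Gpr182, Oit3 and Dnase1l3, which is 10 of the 58601 rows of the deposited table. All 10 were matched to 1 row each. The data are 6 RNA-seq libraries of whole liver, 3 from vehicle mice and 3 from mice given lycorine, a plant alkaloid. All 6 come from animals labelled as knockouts of Mdr2, the phospholipid transporter gene Abcb4 whose loss causes cholestatic liver injury, and treatment lasted 2 weeks from an age of 8 weeks. One protocol text writes the line as Mdr2-HKO without spelling it out. Whether the gene was removed in all cells or in hepatocytes alone is therefore unknown here, and with it the genotype of the endothelial cells. The labels used here give neither dose nor sex. No wild-type liver was analysed here. The series asks how lycorine affects intrahepatic cholestasis. Per-library values are given in the order of library 1, 2 and 3 of each group.

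Values are in TPM, each gene's length-corrected share of a fixed total of 1000000 transcripts, which allows genes to be compared within a library. Read depth is unknown, since this unit does not retain it. Nothing in the labels says that each library is a separate animal, and the p-values measure only the spread between these libraries. In whole liver, fewer cells of a type and less RNA per cell cannot be told apart. Abcb4 was at 8.32 to 43.5 TPM in the 6 libraries, and a gene-level value cannot show whether the transcript is intact. Vehicle 3 stood apart: nuclear protein-coding genes held 51.5% of its TPM against 63.7% to 78.1% elsewhere, and its mean correlation with the other libraries, across genes, was 0.759 against 0.855 to 0.903.

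Sinusoidal endothelium has open pores and no basement membrane, and it takes up waste molecules from blood. Stabilins, the mannose receptor and the inhibitory Fc receptor carry much of that uptake, while VEGF signalling through Kdr helps to maintain the open state. In chronic liver disease the cells can become capillarized, losing these features and gaining those of ordinary capillaries. Several of the 10 genes are not exclusive to these cells: Stab1, Mrc1, Fcgr2b and Dnase1l3 are also made by macrophages, and Lyve1 by lymphatic endothelium.

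Mean TPM was lower in lycorine for 10 of the 10 markers, against 39.2% of the 26731 rows with a value above 0 in any library. With median-of-ratios scaling, which sets the typical gene level between libraries, it was again lower for 10 of 10, against 54.1% of rows. The markers were chosen with earlier results of these data known, so these shares describe the list and do not test it. None of the 7 markers with a mean of at least 1 TPM passed the test (limma, Benjamini-Hochberg adjusted p of 0.832 to 0.930 over 13854 rows), where 0.0% of rows passed and 476 rows had an unadjusted p under 0.05. At an unadjusted p under 0.05, 1 of those 7, Clec4g, was lower, against 0.65% of rows. The groups did not overlap in 2 of the 10, Clec4g and Mrc1, against 1.1% of rows. The other 3 markers, Lyve1, Oit3 and Gpr182, fell below the minimum. Kdr passed that minimum only through vehicle 1. Without vehicle 1 the mean log2 value was lower for 8 of 10, against 25.3% of the rows tested in that setting. The exceptions among the markers were Stab1 and Fcgr2b.

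The promoters of the pair of markers whose groups did not overlap, and of Stab1, the most abundant one, are shown so that their starts can be compared. Each is the 250 bases before the RefSeq start on GRCm38.p6, read 5′ to 3′ on the gene's strand, with ETS-type and GATA-type motifs on either strand in capitals. They lie at chr8:3720652-3720901 on the minus strand for Clec4g, at chr2:14229164-14229413 on the plus strand for Mrc1 and at chr14:31168642-31168891 on the minus strand for Stab1. The last 22 bases of the Mrc1 window lie inside the gene as GENCODE M21 draws it.
Clec4g: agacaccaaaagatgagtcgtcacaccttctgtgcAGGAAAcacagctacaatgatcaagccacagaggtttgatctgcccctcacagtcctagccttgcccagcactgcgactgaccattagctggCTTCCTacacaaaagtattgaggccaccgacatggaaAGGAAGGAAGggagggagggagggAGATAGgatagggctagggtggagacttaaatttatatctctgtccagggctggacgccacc
Mrc1: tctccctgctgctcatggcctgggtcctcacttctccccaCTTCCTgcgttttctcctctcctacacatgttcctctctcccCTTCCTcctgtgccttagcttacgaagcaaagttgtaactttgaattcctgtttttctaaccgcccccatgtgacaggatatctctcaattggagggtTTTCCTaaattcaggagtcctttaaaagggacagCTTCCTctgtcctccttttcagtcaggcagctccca
Stab1: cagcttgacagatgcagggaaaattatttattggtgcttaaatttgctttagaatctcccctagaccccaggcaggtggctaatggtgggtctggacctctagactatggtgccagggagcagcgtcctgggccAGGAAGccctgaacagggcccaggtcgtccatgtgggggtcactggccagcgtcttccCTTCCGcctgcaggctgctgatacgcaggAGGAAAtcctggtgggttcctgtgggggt

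ETS factors drive many endothelial genes and Gata4 is a regulator of sinusoidal endothelial identity, which is why these motifs were marked. The ETS letters searched, on both strands, were AGGAAG together with CGGAAG, the form AGGAAA and the form CGGAAA. Clec4g held 4 such matches, 2 of which overlap, Mrc1 held 4 and Stab1 held 3. Among 6 of the 10 markers that RefSeq's table holds, 5 had at least 1 match, against 57.2% of 32851 windows of the same length. The GATA letters were AGATAA together with AGATAG, the form TGATAA and the form TGATAG. Of the 6, only Clec4g held one, AGATAG, which starts 62 bases before the start, and 26.5% of all windows held one. Kdr held no ETS match and 2 matches to the GC box GGGCGG, which was in 32.7% of windows. The whole Fcgr2b window and 83 bases of the Stab2 window lie inside the gene as GENCODE M21 draws it, so these counts do not describe annotated promoters alone. The matches are descriptions of letters and not of binding. Lyve1, Oit3, Dnase1l3 and Gpr182 have no sequence here.

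Among the scavenger receptors, Stab1 (chr14:31139013-31168641), a large endocytic receptor of endothelium and alternatively activated macrophages, measured 71.8, 17.9 and 93.9 TPM across the vehicle libraries and 46.9, 29.2 and 53.3 TPM across the lycorine libraries. Vehicle 2 was the lowest of the 6 libraries and the groups overlapped. The log2 fold change of Stab1 was -0.24 (SE 0.61, 95% interval -1.68 to 1.19, limma adjusted p = 0.930). Its sign rested on single libraries. Leaving out vehicle 1 gave 0.02, leaving out vehicle 3 gave 0.21, leaving out lycorine 2 gave 0.01, leaving out vehicle 2 gave -0.96 and leaving out lycorine 3 gave -0.42. Stab1 overlaps Nt5dc2 on the opposite strand, whose mean was 20.6 TPM, and whether reads were assigned by strand is not given in the sources used here.

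Stab2 (chr10:86841198-87008025), the relative of Stab1 that clears hyaluronan from blood, measured 3.71, 1.48 and 6.14 TPM across the vehicle libraries and 2.14, 1.49 and 3.26 TPM across the lycorine libraries. Its libraries took the same order as those of Stab1 within each group, with vehicle 3 and lycorine 3 highest, and the groups overlapped. The log2 fold change of Stab2 was -0.44 (SE 0.46, 95% interval -1.51 to 0.63, limma adjusted p = 0.833). Without vehicle 3 it was -0.09, without lycorine 2 it was -0.26 and without vehicle 2 it was -0.85. Stab1 was 12.1 to 21.9 times as abundant as Stab2 in the same library.

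The lectins were the markers whose groups did not overlap. Clec4g (chr8:3707064-3720651), also called LSECtin, is a C-type lectin that is a ligand of Lag3, an inhibitory protein of T cells. It measured 15.4, 9.46 and 8.90 TPM across the vehicle libraries and 5.17, 4.80 and 2.87 TPM across the lycorine libraries, and the highest lycorine value was under the lowest vehicle value. The group means were 11.3 ± 3.60 and 4.28 ± 1.24 TPM (SD, n = 3 each), a ratio of 2.63 of vehicle over lycorine. The log2 fold change of Clec4g was -1.20 (SE 0.34, 95% interval -1.99 to -0.42), with a limma p of 0.00815 unadjusted and 0.832 adjusted. It ranked 49 by p among the tested rows. The exact two-sided permutation p was 0.1, which is the smallest that 3 libraries against 3 can give. Leaving out any 1 library left the log2 fold change of Clec4g between -1.34 and -0.98.

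Mrc1 (chr2:14229392-14332057), the mannose receptor, measured 4.37, 3.39 and 35.0 TPM across the vehicle libraries and 3.29, 1.64 and 1.56 TPM across the lycorine libraries. Vehicle 3 was 10.3 times vehicle 2, while vehicle 2 and lycorine 1 were close, so the groups were separated by a narrow gap. The log2 fold change of Mrc1 was -1.62 (SE 0.77, 95% interval -3.43 to 0.18, limma adjusted p = 0.832, exact permutation p = 0.1). Without vehicle 3 it was -0.66.

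Fcgr2b (chr1:170958617-170976547), the inhibitory IgG receptor that removes immune complexes, measured 36.1, 8.45 and 7.48 TPM across the vehicle libraries and 19.0, 7.55 and 7.0 TPM across the lycorine libraries. In both groups library 1 was far above the other two, which nearly coincided across groups. The log2 fold change of Fcgr2b was -0.37 (SE 0.64, 95% interval -1.87 to 1.12, limma adjusted p = 0.897). Leaving out any 1 of the 6 libraries moved it by over 1.5 times, from 0.31 without vehicle 1 to -0.80 without lycorine 1. Fcgr2b shares closely similar extracellular sequence with Fcgr3, and reads may be split between them.

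Lyve1 (chr7:110850607-110863239), the hyaluronan receptor used to stain sinusoids and lymphatics, was nearly absent. It measured 0.17, 0.10 and 0.47 TPM across the vehicle libraries and 0.22, 0.05 and 0.02 TPM across the lycorine libraries. The groups overlapped, and all 6 libraries were under 1 TPM. In the fit with no minimum, over 26731 rows, Lyve1 had a log2 fold change of -0.18 (SE 0.13, limma adjusted p = 0.860). Without vehicle 3 it was -0.05.

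Of the vascular genes, Kdr (chr5:75932827-75978458), the main VEGF receptor of endothelium, measured 14.1, 0.76 and 0.94 TPM across the vehicle libraries and 0.98, 0.41 and 0.24 TPM across the lycorine libraries. It was under 1 TPM in 5 of 6 libraries, and vehicle 1 was 18.6 times vehicle 2. The log2 fold change of Kdr was -1.30 (SE 0.84, 95% interval -3.26 to 0.66, limma adjusted p = 0.832), and leaving out vehicle 1 gave -0.29. Gpr182 (chr10:127747276-127751732), an atypical chemokine receptor of endothelium, measured 2.00, 1.14 and 0.63 TPM across the vehicle libraries and 0.88, 0.68 and 0.59 TPM across the lycorine libraries. The groups overlapped through vehicle 3. Its log2 fold change in the fit with no minimum was -0.35 (SE 0.35, limma adjusted p = 0.860). For Gpr182 it was -0.12 without vehicle 1 and -0.56 without vehicle 3.

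The secreted products were also low. Dnase1l3 (chr14:7964533-7994573), a nuclease that digests DNA in chromatin and in circulating particles, measured 5.85, 3.29 and 6.12 TPM across the vehicle libraries and 2.51, 2.38 and 4.68 TPM across the lycorine libraries. Only lycorine 3 exceeded a vehicle library. The group means of Dnase1l3 were 5.09 ± 1.56 and 3.19 ± 1.29 TPM (SD, n = 3 each), with a log2 fold change of -0.54 (SE 0.36, 95% interval -1.38 to 0.29, limma adjusted p = 0.832). Oit3 (chr10:59422958-59441778), a zona pellucida domain protein, measured 1.18, 0.74 and 0.64 TPM across the vehicle libraries and 0.47, 0.71 and 0.15 TPM across the lycorine libraries. Lycorine 2 lay between the vehicle libraries. Its log2 fold change with no minimum was -0.37 (SE 0.26, limma adjusted p = 0.860). For Oit3 it was -0.21 without lycorine 3 and -0.25 without vehicle 1.

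**Figure D1:**
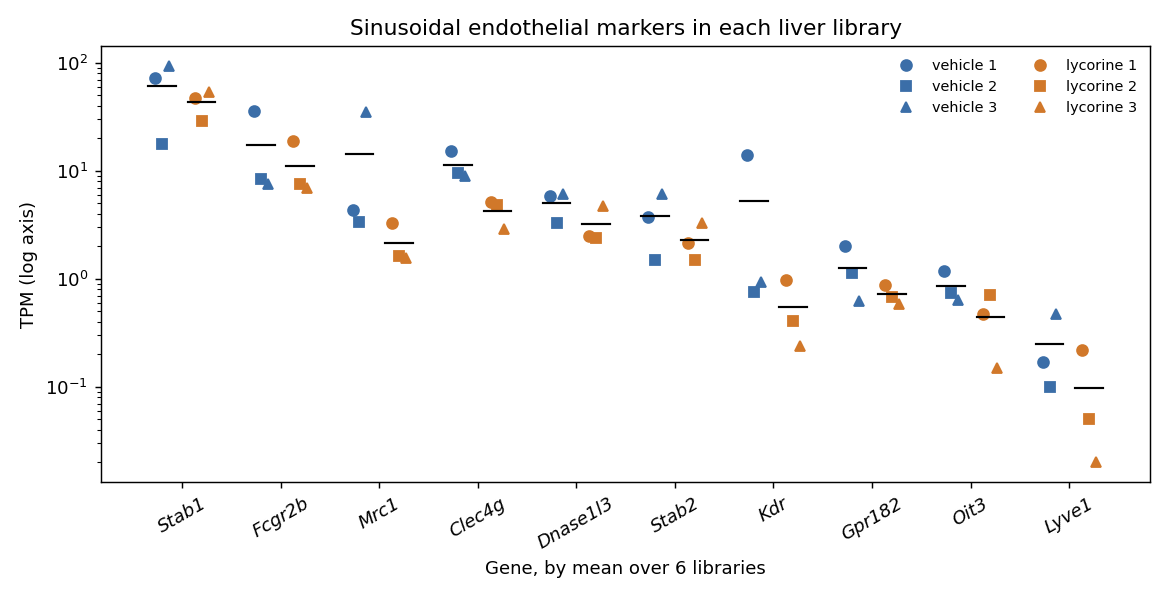
TPM on a log axis of the 10 sinusoidal endothelial markers in each of the 3 vehicle (blue) and 3 lycorine (orange) libraries, with marker shape for the library number and a black line at each group mean. Clec4g and Mrc1 show no overlap between groups, and the vehicle means of Kdr and Mrc1 are set by 1 library each, at 14.1 and 35.0 TPM.

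By mean over the 6 libraries, the order of levels ran from Stab1 at 52.2 TPM through Fcgr2b at 14.3, Mrc1 at 8.21, Clec4g at 7.77, Dnase1l3 at 4.14, Stab2 at 3.04 and Kdr at 2.91 TPM. Gpr182 at 0.987, Oit3 at 0.648 and Lyve1 at 0.172 TPM were lowest. Of neighbours in that order, only Stab1 over Fcgr2b and Oit3 over Lyve1 held in 6 of 6 libraries. Mrc1 exceeded Clec4g in 1 library and Kdr exceeded Gpr182 in 3, so those positions rest on single high values.

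The 10 markers did not follow one profile across libraries. Among vehicle libraries, Clec4g, Fcgr2b, Kdr, Oit3 and Gpr182 were highest in vehicle 1, and Stab1, Stab2, Lyve1, Mrc1 and Dnase1l3 were highest in vehicle 3. Vehicle 2 was highest for 0 of 10. Among lycorine libraries, 7 of 10 were lowest in lycorine 3, while Stab1, Stab2 and Dnase1l3 were highest there. Over all 6 libraries, the highest value was in vehicle 1 for 5 markers and in vehicle 3 for 5, and the lowest was in lycorine 3 for 7. The closest pairs of profiles, by Euclidean distance between standardized log2(TPM + 1) values over the 6 libraries, were Lyve1 with Mrc1 at 0.696, Stab1 with Stab2 at 0.862 and Kdr with Gpr182 at 0.918. The farthest was Mrc1 from Gpr182 at 3.29. The protein-coding genes nearest to the mean profile of the 7 tested markers were Adam17 at 0.237, Fbxo42 at 0.346, Cd83 at 0.372, Slc16a6 at 0.450 and Aif1 at 0.455. The markers themselves lay at 1.28 for Dnase1l3 to 2.06 for Fcgr2b from that mean.

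**Figure D2:**
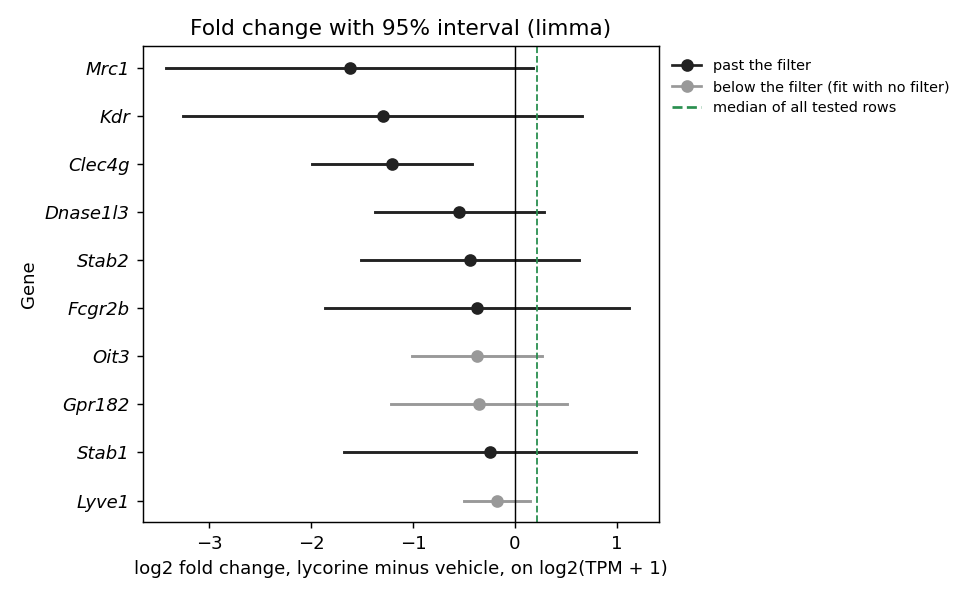
Log2 fold change (lycorine minus vehicle, on log2(TPM + 1)) of each marker with its limma 95% interval, in black for the 7 genes past the minimum mean and in grey for 3 genes taken from the fit with no minimum. The dashed line is the median of the tested rows, 0.22, and of the 10 intervals only that of Clec4g, -1.99 to -0.42, excludes 0.

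Median log2 fold change was -0.41 over the 10 markers, against 0.05 over all 26731 rows. The marker median was -0.27 without vehicle 1 and -0.82 without vehicle 2. The 22 pan-endothelial genes, which include adhesion genes, receptors and transcription factors of vessels, split evenly: mean TPM was lower in lycorine for 11 and higher for 11. Their median was -0.04, and it took either sign across settings: it was 0.19 without vehicle 1, -0.22 without vehicle 2, -0.25 with median-of-ratios scaling and -0.27 with protein-coding nuclear genes only. In limma 0 of the 18 tested passed. Beside 476 of all 13854 tested rows, 1 of the 18 had an unadjusted p under 0.05. That gene was Emcn, endomucin, a sialomucin of capillaries and veins, with 1.02, 0.29 and 0.17 TPM across the vehicle libraries and 2.07, 2.26 and 3.59 TPM across the lycorine libraries (log2 fold change 1.30, SE 0.44, limma adjusted p = 0.832). Emcn reached the minimum of 1 TPM only through the lycorine libraries, with a mean of 0.493 TPM in vehicle and 2.64 TPM in lycorine. Its place among the tested genes therefore depended on the group where it was high. As a description, Emcn lay higher in each lycorine library, where Clec4g lay lower.

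The markers were therefore set against the pan-endothelial genes inside each library, as the mean log2(TPM + 1) of the 10 markers minus that of the 22 genes. The vehicle libraries gave differences of 0.72, 0.51 and 0.68, and the lycorine libraries gave -0.20, -0.12 and -0.04. The group means were 0.64 ± 0.11 and -0.12 ± 0.08 (SD, n = 3 each), and lycorine minus vehicle was -0.75. The ranges did not overlap. Leaving out any 1 library gave -0.82 to -0.71, and leaving out vehicle 3 and lycorine 3 together gave -0.77. The size depended on the pseudocount: it was -1.14 with 0.1 and -0.40 with 5. With Kdr and Mrc1 left out, a choice made after their values were seen, it was -0.55, with 0.67, 0.62 and 0.58 in vehicle and -0.07, 0.08 and 0.20 in lycorine. No test is given for this difference, because the list was proposed with results of these data in view.

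Set against 22 other sinusoidal genes, the markers were at 0.14, -0.26 and -0.16 in vehicle and -0.52, -0.68 and -0.58 in lycorine, again without overlap. Set against 13 Kupffer cell markers the ranges overlapped, at -0.81, -1.41 and -0.99 in vehicle and -0.70, -0.93 and -0.97 in lycorine. Kupffer cells are the resident macrophages of the sinusoid, and their list differed in the same direction as the 10 markers. Mean TPM was lower in lycorine for 13 of 13 Kupffer markers, and none is at 0 in every library. The groups did not overlap in 6 of them, all lower, against 1.1% of rows. Their summed level was 246 to 551.1 TPM in vehicle and 160.3 to 401.8 TPM in lycorine. Fcna, a ficolin of these macrophages, measured 15.8, 14.4 and 16.4 TPM across the vehicle libraries and 2.27, 3.69 and 5.14 TPM across the lycorine libraries (limma adjusted p = 0.832). The part of macrophages in the values of Stab1, Mrc1, Fcgr2b and Dnase1l3 was not tested. Hepatocyte markers lay the other way, with mean TPM higher for 12 of 14. Their summed level was 69650, 66020 and 27230 TPM across the vehicle libraries and 95680, 80880 and 57930 TPM across the lycorine libraries, so the low vehicle value is vehicle 3 alone. The list median was 0.50, and 0.12 without vehicle 3. Since TPM values share 1 total per library, the part of that shift was not tested.

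**Figure D3:**
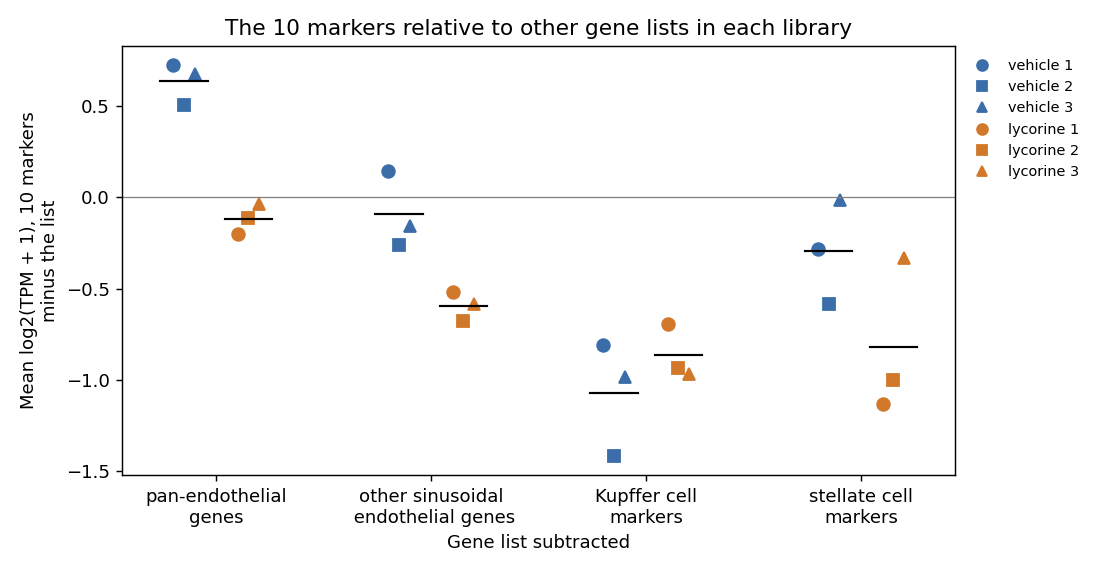
Mean log2(TPM + 1) of the 10 markers minus that of each of 4 other gene lists, in each library, with a black line at each group mean. The vehicle and lycorine libraries do not overlap for the pan-endothelial and other sinusoidal lists, at 0.51 to 0.72 against -0.20 to -0.04 for the former, and overlap for Kupffer and stellate cell markers.

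The other sinusoidal endothelial genes were mixed. Mean TPM was lower in lycorine for 14 of 22. The groups did not overlap in 5 lower genes, against 1.1% of rows, and in 1 higher gene, for which no share of rows was taken. In limma 0 of the 19 tested passed and 2 were lower at an unadjusted p under 0.05, against 0.65% of rows. Fam167b, listed as a gene of this endothelium, measured 8.16, 5.99 and 8.91 TPM across the vehicle libraries and 3.98, 3.22 and 2.36 TPM across the lycorine libraries (log2 fold change -1.06, SE 0.30, limma adjusted p = 0.832). Clec1b, a C-type lectin that binds podoplanin, measured 4.39, 4.66 and 5.81 TPM across the vehicle libraries and 1.04, 1.08 and 3.27 TPM across the lycorine libraries (log2 fold change -1.17, SE 0.38, limma adjusted p = 0.832). Both lay lower in each lycorine library, like Clec4g. Which cells of the liver gave the values of Fam167b and Clec1b was not tested. Plpp3, a lipid phosphatase, lay higher, at 4.05, 5.17 and 5.54 TPM against 13.6, 6.82 and 6.95 TPM.

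Genes of capillarization, which ordinary capillaries express, were split: mean TPM was lower for 6 of 12 and higher for 6. None of the 10 tested passed in limma. Beside 476 of all 13854 tested rows, 1 gene of the list had an unadjusted p under 0.05. It was Plvap, the protein of endothelial diaphragms, with 24.3, 15.2 and 14.9 TPM across the vehicle libraries and 13.2, 7.41 and 3.50 TPM across the lycorine libraries (log2 fold change -1.20, SE 0.46, limma adjusted p = 0.832). Cd34, the stem and capillary cell marker, measured 4.86, 1.34 and 1.97 TPM across the vehicle libraries and 7.48, 4.42 and 1.82 TPM across the lycorine libraries, with overlap.

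Endothelial transcription factors were lower in mean TPM for 6 of 16 and higher for 10. In limma 0 of the 14 tested passed. Beside 476 of all 13854 tested rows, 1 of the 14 had an unadjusted p under 0.05. That was Nr2f2, the venous factor COUP-TFII, with 3.01, 3.20 and 2.13 TPM across the vehicle libraries and 4.64, 5.39 and 4.83 TPM across the lycorine libraries (log2 fold change 0.66, SE 0.28, limma adjusted p = 0.832). Around Kdr, mean TPM was lower for 11 of 16 genes of VEGF and angiopoietin signalling, against 39.2% of rows above 0 in any library. No gene of that list, which leaves Kdr out, separated the groups. Of all such rows, 1.1% did so in the lower direction, so none in a list this short says little. Vegfa, the ligand of Kdr, measured 14.9, 8.96 and 22.6 TPM across the vehicle libraries and 18.1, 23.7 and 23.0 TPM across the lycorine libraries.

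Gdf15, a stress cytokine that stabilins are known to clear, measured 43.7, 65.7 and 36.6 TPM across the vehicle libraries and 10.4, 13.3 and 17.7 TPM across the lycorine libraries (log2 fold change -1.73, SE 0.34, limma adjusted p = 0.832). Over its list, mean TPM was lower for 3 of 6 genes. Of 16 hyaluronan genes, around Stab2 and Lyve1, mean TPM was lower for 8 and higher for 6, and 2 were at 0 in every library. Among 8 Fc receptor genes around Fcgr2b, 6 had a lower mean, and Fcgr4, an activating IgG receptor of myeloid cells, measured 6.08, 18.3 and 12.4 TPM across the vehicle libraries and 3.12, 5.64 and 3.27 TPM across the lycorine libraries (limma adjusted p = 0.832). Fcgrt, the receptor that recycles IgG and albumin, lay the other way, at 74.2, 67.9 and 76.3 TPM against 125.8, 103.6 and 89.9 TPM. The list of other deoxyribonucleases, which also holds Plbd1, not a nuclease, was lower in mean for 4 of 9. Relatives of the mannose receptor and other lectins were lower in mean for 13 of 18. Of those 18, 11 had a mean under 1 TPM and 1 was at 0 in every library. A lower mean was found in 39.2% of rows above 0 in any library. In limma 0 genes of these lists passed, and 2 stabilin ligands, 1 Fc receptor gene and no hyaluronan, nuclease or lectin gene had an unadjusted p under 0.05. Of all 13854 tested rows, 476 had such a p.

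**Figure D4:**
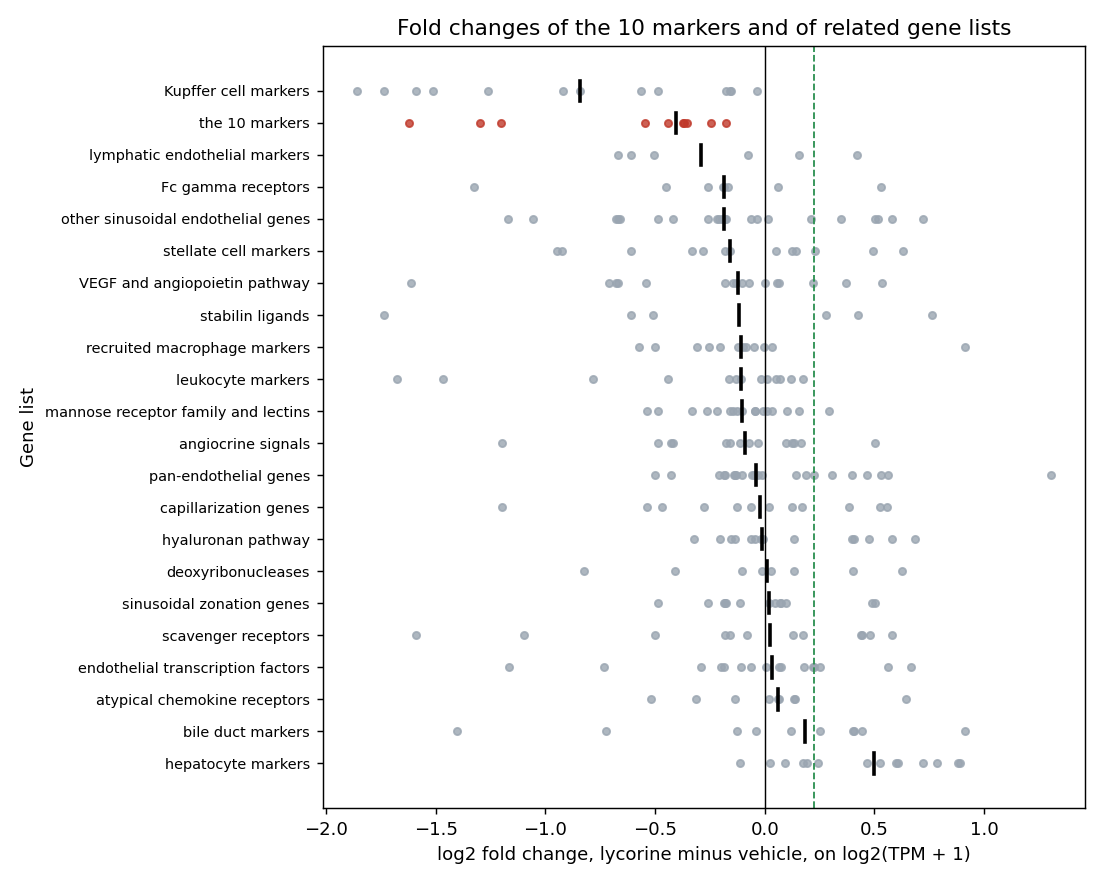
Log2 fold change of every gene with a value above 0 in each list (dots, the 10 markers in red) and the list median (black bar), ordered by median, with a dashed line at the median of the tested rows, 0.22. The median of the 10 markers is -0.41, second to the Kupffer cell markers at -0.84, and that of the pan-endothelial genes is -0.04. The bars include genes under the minimum, and the median of all such rows is 0.05. Over tested genes alone the markers are at -0.545, close to stabilin ligands at -0.512 and lymphatic endothelial markers at -0.505.

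With median-of-ratios scaling, 5 of the 10 markers did not overlap between groups, against 3.19% of rows: Clec4g, Mrc1, Kdr, Oit3 and Gpr182. In limma 0 of 7 passed at that scaling, and the log2 fold change of Clec4g was -1.47 and that of Stab1 -0.54.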

How the data were processed

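Liver RNA was measured in 6 libraries, 3 vehicle and 3 lycorine. The authors deposited 1 table, named for FPKM, whose 6 columns each sum to 1000000 within rounding, so the deposited values are in TPM; the main design had left the unit open between both. The aligner, like the quantifier and annotation, is not given in the sources used here. Per the submitters' processing notes the builds are GRCm38 and mm10. Columns marked Ly were taken as lycorine, and the columns with genotype and number alone as vehicle, the only other label. Of the rows, 3185 are assembled loci with no Ensembl identifier, and whether reads of a marker went to one was not tested. Names and positions came from GENCODE M21 on GRCm38.

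The 13854 rows whose mean reached 1 TPM were put on the log2(TPM + 1) scale. They were fitted in R 4.3.3 by limma 3.58.1, letting the variance follow the mean. Tests were two-sided, p-values were adjusted by Benjamini and Hochberg across the 13854 rows, and 0.05 was the threshold. A fold change on that scale understates the change of low genes. Exact two-sided permutation used 20 assignments. The procedure was tested on simulated data. The 10 markers and the 21 lists beside them (245 genes, 3 symbols not matched) were chosen with earlier results of these data known. Lists are described by counts and medians, with the 10 markers left out of the other lists. Genes named from another list are among its up to 3 tested genes with the smallest unadjusted limma p, and not all of these are printed. Genes of similar profile are the 5 tested protein-coding genes nearest to the mean standardized profile of the tested markers. Alternatives changed the pseudocount, minimum, scaling, variance model, weights, block and libraries used.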

Additional observations from a re-analysis of the deposited data

How the results depend on the processing

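Of 170 values of the 10 markers under 17 alternatives, 165 kept their direction and 0 passed adjusted p of 0.05 in limma. The changed minimums, the fit with no variance trend and the replicate block leave each fold change as it was. Array quality weights likewise leave Lyve1, Oit3 and Gpr182 as they were, since these lie below the minimum. The directions in all these cases were therefore fixed in advance and count among the 165, so that count overstates how much was tried. The 5 that turned were Stab1 at 0.02 without vehicle 1, 0.21 without vehicle 3, 0.01 without lycorine 2 and 0.036 without vehicle 3 and lycorine 3 together, and Fcgr2b at 0.31 without vehicle 1. Over libraries left out singly, Stab1 ran from -0.957 to 0.21 and Fcgr2b from -0.797 to 0.31. The number of markers lower in lycorine was 8 to 10 of 10, against 20.4% to 52.9% of tested rows. The marker median log2 fold change ran from -0.82 without vehicle 2 to -0.27 without vehicle 1. Markers whose groups did not overlap numbered 5 with median-of-ratios scaling (3.19% of all rows), 4 with protein-coding nuclear genes only (2.04%), 5 without vehicle 3 and lycorine 3 together (4.66%), and 2 to 5 over the libraries left out singly (1.78% to 6.98%, the highest without vehicle 2), where fewer libraries are compared. Over all rows limma called 1 with array quality weights, 1 with a pseudocount of 0.1, 5 without vehicle 3 and lycorine 3 together and 0 to 2 over the libraries left out singly; the cause was not tested. The difference between markers and pan-endothelial genes was -1.14 with a pseudocount of 0.1, -0.40 with a pseudocount of 5, -0.55 without Kdr and Mrc1 and -1.08 with medians in place of means, the last 2 chosen after seeing the data. Under the replicate block limma called 0 rows and 0 markers, and rows with an unadjusted p under 0.05 went from 476 to 1033. Same-numbered libraries had deviations correlated at 0.31, 0.05 and 0.29, and libraries of different number at -0.34 to 0.21. Every library but vehicle 2 correlated best with its own number. The labels do not say what the numbers mark, so they were not taken as pairs. Whether they mark a shared batch was not tested. Depth is unknown, so levels under 1 TPM, as for Lyve1, have no counting limit.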
